A study of Mus musculus with 2 samples.

Results

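Histone genes were examined in 2 libraries of mouse heart RNA, as the rows of the deposited FPKM files whose symbols belong to the histone families (those beginning with Hist1h to Hist4h, H2af, H3f, H1f or Hils). The rule found 85 of 24346 gene symbols. Of these, 68 are taken as replication-dependent genes of the histone clusters, 1 pseudogene among them, and 17 as genes of histone variants. This split is by symbol alone. The 68 include the germline genes Hist1h1t, Hist1h2aa and Hist1h2ba, and the 17 include the pseudogene H2afy3. Both libraries came from hearts labelled as high-fat diet and myocardial infarction (HFD-MI) with the age label day 14; 1 library is labelled as treated with probucol (a cholesterol-lowering antioxidant) and 1 as untreated. The infarction and the diet are thus shared by both groups. Genotype and strain are not given in the labels; the deposited names carry the marks HypoE and CM, which are not explained there. Whether a library holds 1 animal or a pool, which part of the heart was taken and from which event the days were counted are not stated in the labels. Each group has 1 library, so there is no test between the treatments, no replicate check, and every statement describes these libraries rather than the conditions.

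Histones package DNA into nucleosomes, with H2A, H2B, H3 and H4 in the core and H1 as the linker. The replication-dependent genes lie in clusters and are transcribed mainly in S phase, when new DNA has to be packaged. Their mRNAs have no introns and normally no poly(A) tail; they end just after a short stem-loop that is bound by the stem-loop binding protein Slbp. Variant histones, such as H2A.Z, macroH2A and the replacement H3 made by H3f3a and H3f3b, are made throughout the cell cycle from polyadenylated mRNAs, most of them spliced, and are the main supply of cells that have stopped dividing, as most adult heart muscle cells have. The libraries were made with a stranded mRNA kit, which takes RNA by its poly(A) tail. A stem-loop mRNA without a tail is a poor substrate for this step, and levels of cluster genes here are levels of the RNA that passed this selection.

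The labelled tissue was clear in both libraries. All 12 heart muscle markers passed a mean of 0.5 FPKM, with summed levels of 74220 FPKM with probucol and 56461 without. By definition, FPKM counts fragments per kilobase of transcript and scales them to mapped fragments. The scaling used between these libraries was not given. Low values rise in steps of single fragments: for 1 kb of transcript a step was 0.149 FPKM with probucol and 0.134 FPKM without, so a like FPKM rests on slightly more fragments in the untreated library. A count of 0 allows up to 3 fragments; for cluster genes with 1 exon this is 0.182 to 2.71 FPKM with probucol and 0.163 to 2.43 FPKM without, depending on their length. The median log2 ratio of the 12882 genes with a mean of at least 0.5 FPKM was 0.01.

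The stem-loop was searched in the GENCODE transcripts of each gene, after the coding sequence, as the 16-base histone 3' stem-loop consensus in the direction of the transcript, which opens with GG, closes with CC and has arms that can pair (G with T allowed). It was found in 46 of 68 cluster genes. Of the other 22, 13 have annotated transcripts that stop at the stop codon and so could not show it. Among 21759 other protein-coding genes, 0.253% held it anywhere in their longest transcript and 0 held it in the last 100 bases. The commonest form, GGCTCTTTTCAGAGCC, was present in 26 cluster genes, and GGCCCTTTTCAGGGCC was the form of 7 genes, all of them H4 genes. The sequences below show that cluster genes with very different levels carry the same or nearly the same stem-loop, in capitals with 7 bases on each side (GRCm38).
Hist1h1c (chr13:23739505-23739534, plus strand): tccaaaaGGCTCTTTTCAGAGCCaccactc
Hist3h2a (chr11:58955165-58955194, plus strand): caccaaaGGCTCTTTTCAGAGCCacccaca
Hist1h3b (chr13:23752813-23752842, plus strand): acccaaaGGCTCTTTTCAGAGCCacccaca
Hist1h4h (chr13:23531451-23531480, plus strand): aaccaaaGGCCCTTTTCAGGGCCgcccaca
Hist1h4f (chr13:23551284-23551313, minus strand): tctcaaaGGCCCTTTTCAGGGCCacccact
H2afx (chr9:44335233-44335262, plus strand): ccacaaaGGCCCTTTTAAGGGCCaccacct
Hist1h1c, Hist3h2a and Hist1h4h were among the most abundant cluster genes, whereas Hist1h3b, which encodes an H3, and Hist1h4f, which encodes H4, were listed at 0 in both libraries. H2afx, a variant gene outside the clusters, was the 1 variant with a stem-loop.

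Some cluster genes also have annotated transcripts that run on past the stem-loop to a poly(A) signal (AATAAA or ATTAAA within the last 50 bases). Such an end was annotated for 17 of 68 cluster genes, 14 in which the stem-loop was found too and 3 in which it was not. The signal itself is common, since 72.4% of other protein-coding genes have it at the end of their longest transcript. The ends of the 4 genes with one and at least 20 estimated fragments in both libraries together are shown, the signal in capitals.
Hist1h1c (chr13:23740338-23740367, plus strand): ttctAATAAAaagcgtttagttttcattca
Hist1h4h (chr13:23531484-23531513, plus strand): tcttATTAAAagagcgaacatgtgttttac
Hist3h2a (chr11:58956793-58956822, plus strand): gcccAATAAAataagagtacgtgtataaca
Hist2h2be (chr3:96223713-96223738, plus strand): tattAATAAAgttaccgattagtttc
The annotated transcript ran 840 bases past the stem-loop in Hist1h1c, 46 bases in Hist1h4h and 1643 bases in Hist3h2a. No stem-loop letters were found in the Hist2h2be transcript.

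Most cluster genes were at or near 0 in both libraries. Of 68, 39 were listed at 0 in both, 15 in 1 of them and 14 were above 0 in both; 7 had at least 1 FPKM in both. By comparison, 33.6% of all symbols were listed at 0 in both libraries. Of the 17 variant genes, 11 were above 0 in both libraries and 9 had at least 1 FPKM in both. Summed over all members, cluster genes had 203 FPKM with probucol and 196 without, and variants had 556 and 683 FPKM. Cluster genes thus held 26.7% of the histone FPKM with probucol and 22.3% without. Without the most abundant member of each group these shares were 29.3% and 23.9%. All histone genes together were 0.102% and 0.130% of all FPKM.

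**Figure D1:**
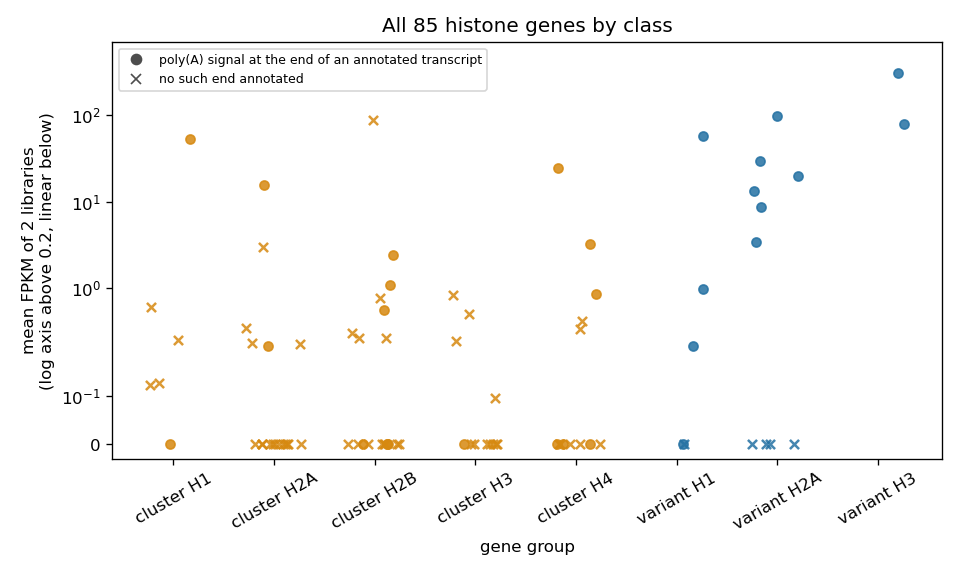
Mean FPKM of both libraries for each of the 85 histone genes, by class; circles mark genes with an annotated transcript that ends after a poly(A) signal and crosses the others, on an axis that is logarithmic above 0.2. Most cluster genes lie at or near 0 while single genes of H1, H2A, H2B and H4 lie above 10 FPKM, and both variant H3 genes are high.

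The cluster signal came from few genes. Hist1h2bc, Hist1h1c, Hist1h4h and Hist3h2a held all but 8.59% of the cluster FPKM with probucol and all but 8.75% without, leaving 17.4 and 17.1 FPKM to the other 64 genes. Fragment numbers were estimated for the 63 cluster genes with 1 exon from their RefSeq lengths. Of 30 estimates above 0 and under 10 fragments, 26 lay within 0.05 of a whole number, against 3 of 30 when the longest GENCODE transcripts were used. The step and the subtracted bases had been fitted on RefSeq lengths, with these genes included, and were not fitted anew for GENCODE. The comparison thus favours RefSeq by construction. The RefSeq models of 43 of the 44 such genes with a stem-loop end within 10 bases after it, with a median of 5 bases. The fragment numbers given here thus mostly assume models that stop at the stem-loop. Which annotation the authors used is not stated, and the comparison above cannot decide it. Of the 63 genes, 59 had fewer than 20 fragments in both libraries together. After rounding, these 59 genes summed to 27 fragments with probucol and 31 without, 37 of them had 0 in both, and none had more than 7 in either library. Hist1h3e entered these sums as 5 and 3, from estimates of 5.37 and 2.68 that are not near whole numbers.

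The annotated poly(A) end and the level went together only in part. Of 5 cluster genes with at least 20 estimated fragments, 4 had such an end (Hist1h1c, Hist1h4h, Hist2h2be and Hist3h2a), and of the other 63, 13 did. Among these 13 is Hist1h2be, whose fragments were bounded from below by a coding length of 381 bases. Its annotated transcripts have 2099 to 2506 bases, so it may reach 20 fragments. The filter of a mean of 0.5 FPKM was passed by 8 of the 17 genes with the end and by 5 of the 51 without. Of all 24346 symbols, 12882 passed it, so the genes with the end did not stand out from genes at large. Yet 8 of the 17 were listed at 0 in both libraries, among them Hist4h4, whose annotated transcript runs 2445 bases past the stem-loop. Hist1h2bc, the most abundant cluster gene, had neither the stem-loop letters nor a signal in the last 50 bases of its 1 GENCODE transcript. That transcript is spliced, 1156 bases long and runs past the stop codon, so it is not the usual form of a cluster gene without introns. With members chosen by name and 1 library per group, these counts are a description.

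Among linker histones, 1 cluster gene was abundant. Hist1h1c, which encodes H1.2 (chromosome 13, 23738807 to 23739531, GRCm38, 1 exon), had 52.0 FPKM with probucol and 55.2 without. This was close to H1f0, the linker variant of resting and differentiated cells (chromosome 15, 79028212 to 79030504), with 56.3 and 59.1 FPKM. The values rest on 180 and 213 fragments for Hist1h1c and on 788 and 923 for H1f0, and both ratios have counting intervals that include 1. The other cluster H1 genes were near the floor: Hist1h1e had 0.521 and 0.70 FPKM from 2 and 3 fragments, Hist1h1d had 1 fragment in each library, Hist1h1a and Hist1h1b had 1 fragment in 1 library each, and Hist1h1t, the linker of testis, was listed at 0. H1fx, a further linker variant, had 0.875 and 1.10 FPKM from 5 and 7 fragments. The linker pool counted here was thus almost wholly Hist1h1c and H1f0.

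For H2B, for which no variant row is in the rule, 1 cluster gene held nearly everything. Hist1h2bc (chromosome 13, 23684199 to 23692480) had 92.5 FPKM with probucol and 83.4 without. Hist1h2be and Hist1h2bg encode the same protein, and Hist1h2bc held 99.0% and 97.98% of the FPKM of these 3 genes, although reads of near-identical copies may have been divided between them. Hist2h2be, an H2B gene with a long 3' end (chromosome 3, 96221072 to 96223738), had 3.16 and 1.72 FPKM, and Hist1h2be had 0.975 and 1.20. Hist1h2bb (1.06 and 0.475 FPKM) rests on 2 fragments and 1, and Hist3h2ba (0.588 and 0.527) on 1 in each. Of 19 cluster H2B rows, 11 were listed at 0 in both libraries, including Hist1h2ba, the H2B of testis, and the pseudogene Hist3h2bb-ps.

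For H2A, the variants outweighed the cluster genes. The 10 variant rows of H2A summed to 143 FPKM with probucol and 204 without, and the 18 cluster rows to 24.1 and 15.5. Most of the cluster sum was Hist3h2a (chromosome 11, 58954685 to 58955192), with 20.4 FPKM with probucol and 11.2 without; its RefSeq span overlaps Trim17 on the same strand, which was listed at 0. Hist2h2ac followed with 2.30 and 3.61 FPKM from 4 and 7 fragments. The 9 cluster H2A genes that encode 1 identical protein, Hist1h2ab and Hist1h2ac among them, summed to 0.884 and 0 FPKM. Of the variants, H2afz, the main gene of H2A.Z (chromosome 3, 137864487 to 137866922), had 75.6 and 122 FPKM, and H2afv, the second H2A.Z gene (chromosome 11, 6427226 to 6444511), had 28.3 and 30.3. H2afz was thus 2.67 times H2afv with probucol and 4.02 times without.

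The other H2A variants were lower. H2afy, the gene of macroH2A1, a large H2A linked to silent chromatin (chromosome 13, 56073622 to 56135626), had 16.3 FPKM with probucol and 23.5 without. H2afy2, of macroH2A2, had 2.98 and 3.93 FPKM, and it overlaps Aifm2 on the opposite strand. H2afj had 11.9 and 15.1 FPKM. H2afx, the variant that is phosphorylated beside DNA breaks, had 7.53 and 9.66 FPKM from 58 and 83 fragments. Each of these 4 genes was lower in the probucol library. H2afy3, annotated as a pseudogene, and the germline genes H2afb1, H2afb2 and H2afb3 were listed at 0.

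For H3, nearly all signal came from the replacement genes. H3f3a (chromosome 1, 180802560 to 180813605) had 290.3 FPKM with probucol and 324 without, and H3f3b (chromosome 11, 116021961 to 116026039) had 65.7 and 93.5; both encode the same protein. The 12 cluster H3 genes summed to 1.67 and 1.66 FPKM against 356 and 418 FPKM for the replacement genes. The cluster sums rest on so few fragments that no fold is given. Both H3f3 genes and the cluster genes are measured per length, but only the former are made with a poly(A) tail as a rule. The highest cluster H3 gene, Hist1h3e, had 1.14 and 0.511 FPKM, the ratio that 2 fragments against 1 would give. Of the 12, 8 were listed at 0 in both libraries.

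For H4 there is no variant row, and the cluster genes are the only source. All 13 H4 genes encode the same protein, yet Hist1h4h (chromosome 13, 23531044 to 23531478) held 81.1% of their FPKM with probucol and 85.4% without. It had 20.4 and 28.9 FPKM, from 31 and 49 fragments. Hist1h4i had 3.07 and 3.43 FPKM from 4 and 5 fragments. Hist2h4 had 1.70 FPKM from 2 fragments with probucol and was listed at 0 without. Of the 13 genes, 8 were listed at 0 in both libraries, Hist4h4 among them. Fragments of near-identical copies may have been assigned to 1 of them, so the division between H4 genes is uncertain while their sum, 25.2 and 33.9 FPKM, is less so.

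**Figure D2:**
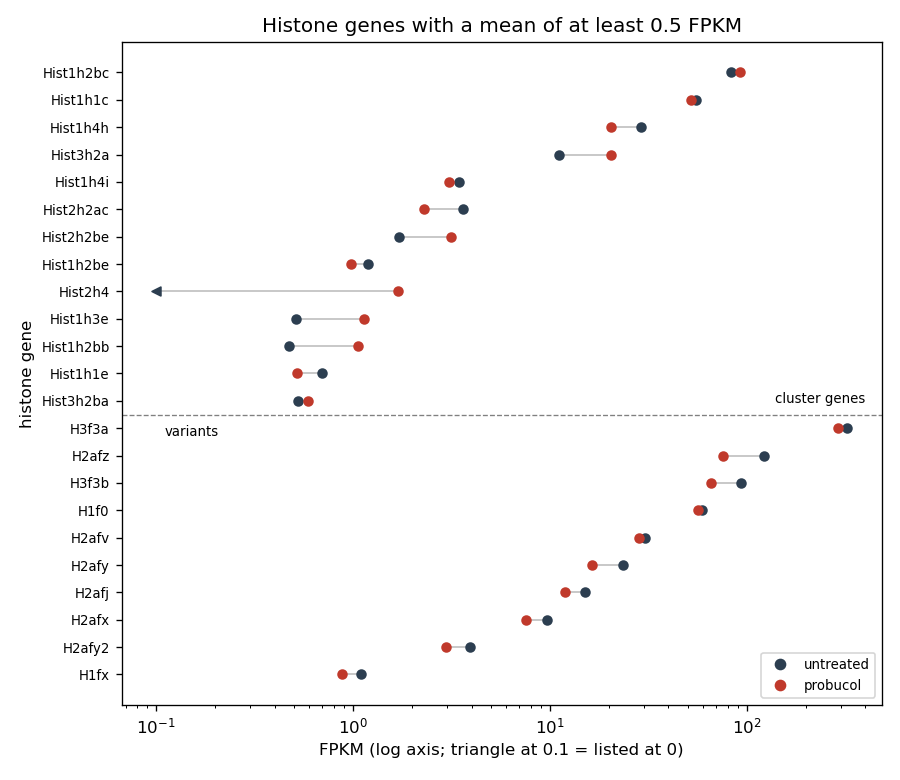
FPKM on a log axis of the 23 histone genes with a mean of at least 0.5 FPKM, with 1 point per library (dark for untreated, red for probucol) and a triangle for a value listed at 0. All 10 variants lie lower in the probucol library, and the cluster genes lie on either side.

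Facing H2A and H2B genes were compared, since they share the sequence between their starts. Of the members, 13 pairs of H2A and H2B genes start in opposite directions with 163 to 280 bases between them. In 10 pairs neither gene reached 1 FPKM in both libraries, in 2 pairs 1 gene did, and in 1 pair both did. Hist1h2ac starts 239 bases from Hist1h2bc and was listed at 0 in both libraries beside 92.5 and 83.4 FPKM. Hist2h2ac and Hist2h2be, 191 bases apart, were the pair with both genes above 1 FPKM. Hist3h2a faces the pseudogene Hist3h2bb-ps, which was listed at 0.

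Promoters, taken from RefSeq (GRCm38.p6) as 250 bases before to 50 after the start, were found for 77 of 85 members. The CCAAT box (CCAAT on either strand) was present in 53 of 62 cluster promoters, against 41.1% of all 27025 genes with a promoter. Every cluster promoter of H1, H2A, H2B and H3 had it, but only 3 of 12 of H4. The TATA box letters TATAAA were present in 35 of 62, against 15.7%. The octamer ATTTGCAT, known from H2B promoters, was present in 7 of 16 H2B and 7 of 18 H2A cluster promoters, against 1.97% of all genes; facing genes share their window, so these are not separate sites. The letters AAACACA, known as the H1 box, were present in 5 of 6 cluster H1 promoters, against 8.22%. Among variants TATAAA was present in 1 of 15. These motifs may overlap each other, and a match is only a match of letters. A gene with counts in both libraries and a gene listed at 0 are shown to compare them, with the octamer, CCAAT and TATAAA in capitals on either strand.
Hist3h2a (chr11:58954435-58954734, plus strand): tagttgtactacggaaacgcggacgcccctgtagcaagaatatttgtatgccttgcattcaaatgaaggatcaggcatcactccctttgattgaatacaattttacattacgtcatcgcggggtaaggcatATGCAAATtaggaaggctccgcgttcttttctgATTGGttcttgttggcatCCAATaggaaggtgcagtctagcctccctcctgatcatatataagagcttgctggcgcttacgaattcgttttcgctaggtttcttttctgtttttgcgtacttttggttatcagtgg
Hist1h2bk (chr13:22035571-22035870, plus strand): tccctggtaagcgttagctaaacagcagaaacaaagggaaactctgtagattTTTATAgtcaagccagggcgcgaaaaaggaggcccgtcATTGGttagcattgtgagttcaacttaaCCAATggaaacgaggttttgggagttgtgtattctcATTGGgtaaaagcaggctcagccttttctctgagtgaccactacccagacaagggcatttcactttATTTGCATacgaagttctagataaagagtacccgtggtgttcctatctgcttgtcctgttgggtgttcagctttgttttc
Both windows hold an octamer and CCAAT boxes, Hist3h2a with 20.4 and 11.2 FPKM and Hist1h2bk at 0.

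Between the libraries, variants were lower with probucol and cluster genes were mixed. With 0.5 added to both values, the log2 ratio of probucol to untreated FPKM was computed, which understates the difference of low genes, for genes with a mean of at least 0.5 FPKM. This filter was passed by 10 of 17 variants and 13 of 68 cluster genes. All 10 variants lay below 0, where 49.1% of all tested genes did, with a median log2 ratio of -0.33 and a range from -0.68 to -0.07. Of the 13 cluster genes, 6 lay below 0 and 7 above, with a median of 0.08 and a range from -0.55 to 2.14. No variant was at least 2-fold lower, where 5.14% of all tested genes were, and none was at least 2-fold higher, where 1.07% were. No cluster gene was at least 2-fold lower either, and 1 was at least 2-fold higher, Hist2h4, with its 2 fragments against 0. Among tested cluster genes with a mean of at least 1 FPKM, a stricter filter, the median was -0.11. Among the 5 cluster genes with at least 20 estimated fragments, a set chosen after seeing the data, it was 0.15. No direction can thus be given for the cluster genes as a group.

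H2afz, H3f3b and H2afy were the lowest variants with probucol. They were picked from the 10 tested variants after their values were seen, so their ratios and intervals are shaped by that choice. H2afz had a log2 ratio of -0.68, 1.61-fold lower, and was the 1 variant past 1.5-fold, where 12.0% of all tested genes were lower by that limit. H3f3b had -0.51, 1.42-fold lower, and H2afy had -0.51. As these genes have several exons, their fragments were bounded from below by the coding length: at least 90 and 161 for H2afz, 89 and 141 for H3f3b, and 100 and 160 for H2afy. Counting intervals (exact Clopper-Pearson, 95%) of the ratio of probucol to untreated were 0.476 to 0.812 for H2afz, 0.534 to 0.925 for H3f3b and 0.538 to 0.901 for H2afy. Such intervals hold the error of counting alone: amplified copies of a molecule are counted as separate fragments, and the spread between animals is not in them. H3f3a, which encodes the same protein as H3f3b, had -0.16 with an interval from 0.783 to 1.03, and H2afv, partner of H2afz, had -0.09 with 0.582 to 1.54. For H2afx (-0.34), H2afj (-0.33) and H2afy2 (-0.35) the intervals also included 1, and H1f0 (-0.07) and H1fx (-0.22) completed the 10. The fragments of H3f3a, H2afv, H2afj and H2afy2 are lower bounds from the coding length too, which widens their intervals. Whether these would include 1 with the full fragment numbers is not known, so they set no contrast with H2afz, H3f3b and H2afy. In bulk tissue, fewer cells of a type and less RNA per cell cannot be told apart.

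Of the cluster genes with enough fragments, 2 were higher with probucol. Hist3h2a had a log2 ratio of 0.84, 1.79-fold higher, from 41 against 25 fragments with an interval from 1.09 to 3.14. Hist2h2be had 0.72, 1.65-fold higher, from 52 against 32 fragments with an interval from 1.15 to 2.91. Both were chosen among 5 such genes after their values were seen, and 5.52% of all tested genes were at least 1.5-fold higher. Hist1h2bc had 0.15, from at least 106 against 107 fragments with an interval from 0.837 to 1.46. Hist1h1c had -0.08 with 0.769 to 1.16, and Hist1h4h had -0.49 with 0.435 to 1.13. The remaining cluster genes past the filter had few estimated fragments, though for Hist1h2be these are only a lower bound. Their log2 ratios were -0.14 for Hist1h4i, -0.20 for Hist1h2be, -0.23 for Hist1h1e and -0.55 for Hist2h2ac on the lower side. On the higher side were Hist3h2ba (0.08), Hist1h2bb (0.68), Hist1h3e (0.70) and Hist2h4 (2.14, against a value listed at 0). Summed, the 59 genes with fewer than 20 fragments had a ratio of 0.972 with an interval from 0.558 to 1.68, so a 1.5-fold difference in either direction was not detectable at this depth.

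**Figure D3:**
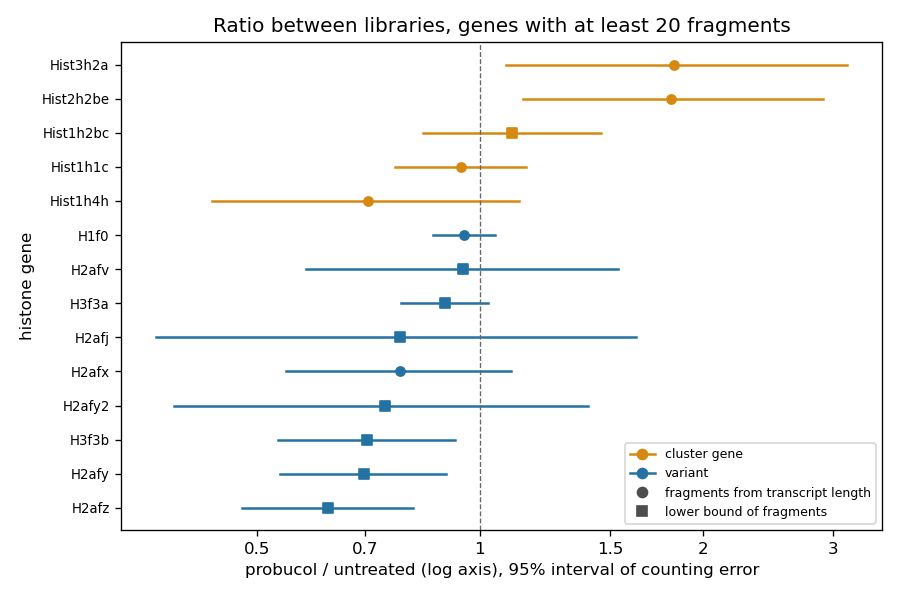
Ratio of probucol to untreated on a log axis for the 14 histone genes with at least 20 fragments in both libraries together, with exact 95% intervals of counting error; squares mark genes whose fragments are lower bounds, which widens the interval. The intervals of H2afz, H2afy and H3f3b lie below 1, those of Hist3h2a and Hist2h2be above 1, and the other 9 include 1.

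Other RNAs without a poly(A) tail were looked at beside the cluster genes. From a list of 21 small nuclear, nucleolar and other short RNAs, some of which were put on it with their values known, 15 had rows and 9 of these were listed at 0 in both. Of the other 6, 5 were listed at 0 in the untreated library and passed the filter only through the probucol library, which fixes their direction. The 1 above 0 in both was Rmrp, the RNA of an endonuclease that processes ribosomal and mitochondrial RNA, with 10.04 FPKM with probucol and 3.60 without. Fragments were not estimated for these short RNAs, Rmrp among them, so the number of fragments behind its values is not known. No size is given for the others. Their part in the cluster gene values was not tested.

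Most genes of S phase were lower with probucol. Of 31 such genes, 29 passed the filter, 28 of these lay below 0 (49.1% of all tested genes did), and 17 were lower by 1.5-fold or more (12.0% of all were); the median log2 ratio was -0.70. Pcna, the sliding clamp of DNA polymerases, had 48.7 FPKM with probucol and 70.4 without. Rfc4, of the loader of that clamp, had 8.74 and 9.17, and Rrm1, a subunit of ribonucleotide reductase, had 6.86 and 9.54. Uhrf1, which keeps DNA methylation through replication, had 0.468 and 3.12, and Ccna2, cyclin A2, had 1.84 and 7.51. With 1 library per group the difference between these genes and the histones was not tested. Of the markers of proliferating cells, 10 of 10 were at least 1.5-fold lower (Mki67 and Top2a are in both lists), with summed levels of 10.6 FPKM with probucol and 37.6 without. Of the macrophage markers, 12 of 12 passed the same limit downwards, with sums of 1113 and 3667 FPKM, and none of either list was at 0. The part of these cells in the lower variant levels was not tested.

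Genes for the processing of histone mRNA lay close to 0. Of 19 with rows, 18 passed the filter and 8 of these lay below 0, with a median of 0.02; 0 reached 1.5-fold, a limit that 12.0% of all tested genes passed downwards and 5.52% upwards. Slbp, whose protein binds the stem-loop, was the furthest from 0, at -0.43 on the log2 scale, from 7.48 FPKM with probucol and 10.2 FPKM without. Sympk, a scaffold of the cleavage complex, had 18.9 and 15.1 FPKM (0.32). Snrpd3 (118 and 116 FPKM) and Snrpb (97.7 and 108), which are Sm proteins, and Ncbp2 (24.3 and 20.6), which binds the cap, were the most abundant. The rescaling to an equal upper quartile turned the list's median to -0.017, so it has no direction.

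Histone chaperones carry histones to DNA and load them. All 26 chaperones and partners passed the filter, with a median of -0.08; 4 were at least 1.5-fold lower, near the 12.0% of all tested genes, and 0 higher, where 5.52% of all were. The furthest from 0 were Chaf1a, the large subunit of the assembly factor that works at replication forks, with 0.867 FPKM with probucol and 2.29 without (-1.03), and Asf1b, a chaperone of H3 and H4 in dividing cells, with 2.04 and 3.85 (-0.78). The most abundant were Npm1 (177 and 198 FPKM), Nap1l4 (113 and 100.5) and Nap1l1 (72.4 and 76.8), none of them 1.5-fold different. Enzymes that modify histones had a median of 0.08 over 35 tested genes, with 1 at least 1.5-fold lower and 0 higher, against the same shares of all genes. That gene was Ezh2, the methyltransferase of the Polycomb repressive complex, with 1.90 and 3.40 FPKM, while Hdac6, a mostly cytoplasmic deacetylase, had the largest ratio in the other direction, 4.68 and 3.09 FPKM. Hdac2 (44.0 and 34.0 FPKM), Kat2b (39.1 and 33.5) and Hdac3 (29.5 and 23.3) were the most abundant.

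**Figure D4:**
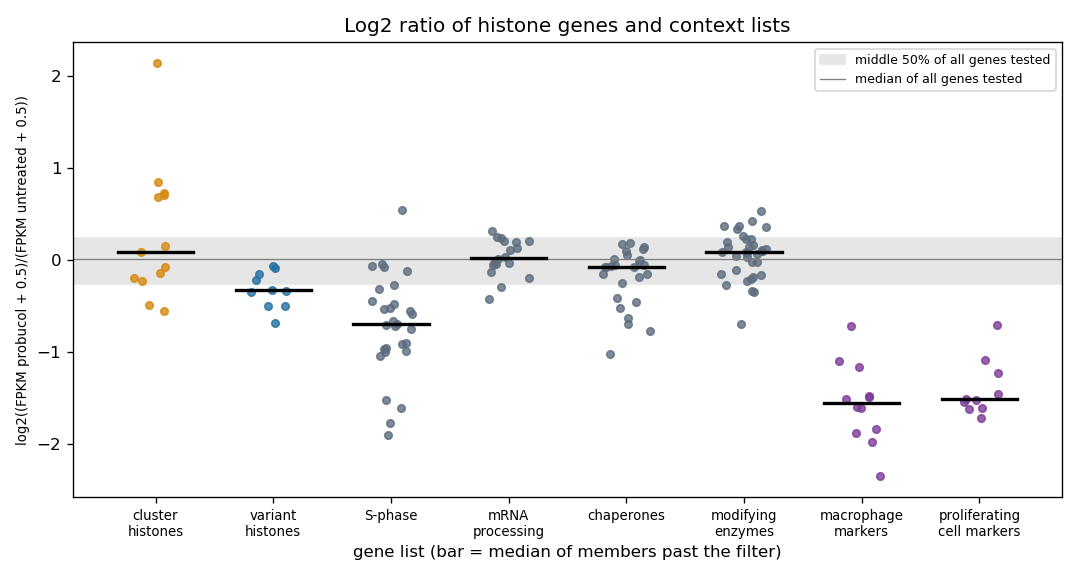
Log2 ratio of each gene past the filter in the histone groups, 4 context lists and 2 marker lists, with bars at the medians, the median of all tested genes as a line and their middle 50% as a band. The median of the variant histones lies between 0 and that of the S-phase genes, and cluster histones spread on both sides of 0.

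Histones of the germline were listed at 0 or at single fragments. Of 9 such genes, 8 were listed at 0 in both libraries: Hist1h1t, Hist1h2aa, Hist1h2ba, H1fnt, H1foo, H2afb1, H2afb2 and H2afb3. A value of 0 allows 3 fragments, which for the short H2afb1 is up to 3.24 FPKM with probucol. Hils1, the linker of spermatids, had 1 fragment in each library (0.228 and 0.204 FPKM) and lies opposite the muscle gene Sgca, with 81.9 and 54.5 FPKM. Markers of male germ cells summed to 0.344 FPKM with probucol and 0.209 without, and 6 of the 8, among them the protamines Prm1 and Prm2, were listed at 0.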

How the data were processed

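The deposited values are FPKM, 1 value for each of 24346 gene symbols in each of 2 libraries, per the file headers. Per the labels' protocols, RNA came from a miRNeasy extraction and went into TruSeq libraries (stranded, mRNA). Bowtie2, Cuffdiff 2.2.1, TopHat2 2.1.1 and the build mm10 appear in the submitters' processing notes; their roles, the annotation, the use of strand and scaling between libraries were not given in the sources used here. Each library was grouped by its treatment label. Log2 ratios used a pseudocount of 0.5 FPKM and a mean of at least 0.5 FPKM over all genes. Fragments were recovered from the FPKM steps of single-exon genes, with 210 bases subtracted from the RefSeq length. Ratios and the recovery were checked on simulated data. All members matched GRCm38.p6 RefSeq genes. Every member could be named; of each context list, the 3 most abundant genes and the 2 with the largest ratios were named. The members and lists were chosen with earlier results of these data known. Python 3.11.15 and scipy 1.17.1 were used. Other pseudocounts, filters, scalings, fold limits and sums over identical proteins were tried.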

Additional observations from a re-analysis of the deposited data

How the results depend on the processing

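With 1 library per group, no replicate could be left out. No paired analysis was possible because each group has a single library. Of 102 values under other settings, 82 kept their direction and moved little (by at most 0.1 in log2, 1 percentage point, or a count ratio of 1.5). The variant median stayed between -0.37 and -0.31. With the 1.5-fold limit, lower and higher genes were 1541 and 711 of all tested, cluster genes 5 higher and variants 1 lower. With a pseudocount of 0.1, 229 genes of all tested and 3 cluster genes were 2-fold higher, and the S-phase median was -0.81; with a pseudocount of 1 it was -0.57. Without a filter 5 cluster genes were 2-fold lower and 2 higher, where 710 and 173 of all genes were. Each of these cluster genes was listed at 0 in 1 library and had 1 or 2 estimated fragments in the other. The cluster median was then -2.54e-05. With a filter of 1 FPKM 0 cluster genes were 2-fold higher, where 119 of all genes were, and the cluster median was -0.11. Summing genes with identical proteins, or keeping only cluster genes with at least 20 fragments (chosen after seeing the data), left 0 higher. Without H3f3a the variant sum had a log2 ratio of -0.43, against -0.30 with it; without Hist1h2bc the cluster sum had -0.028, against 0.05, and leaving out both gave cluster shares of 29.3% and 23.9%. The upper quartile scaling gave a median of -0.017 for processing genes. Beyond these settings' own construction, the cause was not tested. The depth limits all cluster genes but 5, with Hist1h2be uncertain because its fragments are a lower bound.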

Other observations

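Outside the histone symbols of the rule, Cenpa, the H3 variant of centromeres, which is counted above among the chaperones and their partners, had a log2 ratio of -0.53 (13.5 against 19.7 FPKM) and H2bfm, an H2B variant, was listed at 0 in both libraries. Of all tested genes, 12.0% were at least 1.5-fold lower with probucol and 5.52% at least 1.5-fold higher. Of the further marker lists, fibroblast markers were lower, with 6 of 8 past 1.5-fold and summed levels of 891 and 1533 FPKM. Endothelial markers summed to 326.3 and 326.5 FPKM, with 0 of 7 past 1.5-fold. Of 5 tested erythroid markers, 4 were at least 1.5-fold higher with probucol, with sums of 3348 and 1723 FPKM. Platelet and megakaryocyte markers divided, with 3 of 6 at least 1.5-fold higher and 1 lower; Pf4, a platelet chemokine, had 53.9 against 111 FPKM and Ppbp 13.9 against 2.92.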
